A study of Mus musculus with 11 samples.

Results

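The data compared regulatory T cells (Tregs) of visceral adipose tissue (VAT) with Tregs of the spleen in mice whose Tregs lacked a working Srebf2 gene. The members were 5 of the 11 labelled samples of the series, chosen by genotype and tissue as the labels give them: 3 VAT libraries and 2 spleen libraries (replicates 2 and 3), here called VAT KO and spleen KO. All came from male mice aged 25 weeks of the genotype Foxp3-YFPcre Srebf2-flox/flox, in which the Foxp3 gene drives the Cre recombinase, so that Srebf2 was open to deletion in every cell that had expressed Foxp3. Live CD3+ CD4+ Foxp3+ cells had been sorted and their RNA sequenced in bulk. Side-by-side values come from 3 VAT and 2 spleen libraries of Foxp3-YFPcre Srebf2-WT/WT mice of the same sex and age (VAT WT and spleen WT), which carry the same Cre allele. Spleen KO replicate 1 was not analysed here. The labels did not state whether each library was a different animal, and all p-values below therefore refer to the variation among the libraries at hand, technical variation included.

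Tregs restrain immune responses and depend on the transcription factor Foxp3. Those of visceral fat are a specialised population: they rely on the nuclear receptor Pparg, carry the IL-33 receptor ST2 (encoded by Il1rl1), make amphiregulin and IL-10, and handle lipid, while they lose the lymph node homing receptors of resting Tregs. Srebf2 encodes SREBP2, a membrane-bound transcription factor that is cleaved when cell sterol falls and then drives the genes of cholesterol synthesis and uptake. The comparison asked which of these adipose features were present in Tregs without Srebf2.

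The targeted gene was low in all 5 libraries. Srebf2 stood at 0.263, 0.60 and 1.23 in VAT KO and 2.59 and 1.59 in spleen KO, in RPKM (reads scaled to the length of the gene and the size of the library), against 16.6, 15.6 and 30.5 in VAT WT and 10.5 and 23.2 in spleen WT. Every KO library lay below every WT library, and within the KO group the VAT values were all below the spleen values, although the tissue difference did not pass the test (log2 difference -0.89 ± 0.30, adjusted p = 0.0649). It passed without VAT KO replicate 3 (-1.102, adjusted p = 0.0275). Differences here and below are differences of log2(RPKM + 1), a scale on which changes of low genes come out too small, with ± the standard error from limma, and a gene was called where limma's Benjamini-Hochberg adjusted p over all tested genes was under 0.05. RPKM summed to between 186778 and 195737 per library, and the read depth behind these values is unknown. Correlations across genes were 0.968 to 0.972 within VAT KO, 0.970 within spleen KO and 0.868 to 0.887 between the tissues. Of the measured markers of other cells, the 13 B cell genes summed to 64.7 to 143 RPKM in VAT KO and 117 and 161 in spleen KO, the 6 myeloid genes to 79.5 to 113 and 222 in both spleen libraries, and the 3 cytotoxic lymphocyte genes to 104 to 129 and 35.0 and 35.3. Most of the last sum in VAT KO was Nkg7, at 119, 92.7 and 117, while Cd8b1, a chain of the CD8 receptor, was at 8.93, 10.9 and 7.63 RPKM in VAT KO and 13.9 and 18.7 in spleen KO and fell (log2 difference -0.76 ± 0.20, adjusted p = 0.02201), a call lost without VAT KO replicate 1 (-0.75, adjusted p = 0.0606), without spleen KO replicate 3 (-0.56, adjusted p = 0.181) and in a fit of all 4 groups (adjusted p = 0.206). Most of the myeloid sum in spleen KO was Ctss, which fell in VAT KO, while Cst3 and Xcr1 of that list rose (values under other observations). The adipocyte list had 1 measured gene, Lipe, at 2.26 to 3.40 RPKM. In bulk RNA, fewer cells of a type and less RNA per cell cannot be told apart.

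Fat and spleen Tregs without Srebf2 differed in many genes. Of 10095 genes with at least 1 RPKM in at least 2 of the 5 libraries, 988 (9.79%) rose and 1153 (11.4%) fell in VAT KO against spleen KO. At least 2-fold, 592 (5.86%) rose and 344 (3.41%) fell. After scaling by median ratios the split turned to 1140 higher and 856 lower. The count of 2141 called genes was 1262 without spleen KO replicate 2 and 1128 without spleen KO replicate 3, which leave 1 spleen library that is assumed to vary like the VAT libraries. The 12 largest rises were Areg, Ltb4r1 (the leukotriene B4 receptor BLT1), Fos, Atf3, Cxcl2, Il10, Ier3, Gadd45b, Ppp1r15a, Mmp9, Cxcl3 and Csf2, with log2 differences from 6.82 down to 4.94. Ltb4r1 was at 345, 317 and 349.7 RPKM in VAT KO and 1.54 and 2.98 in spleen KO. The 12 largest falls were Igfbp4, Dtx1, Id3, Gbp2b, Sostdc1, Ly6k, Lta, Ces2c, Nsg2, Apol7e, Gpr18 and Capn3, from -3.96 to -2.702.

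Most of the tested adipose Treg genes were higher in fat than in spleen without Srebf2, but not in each list. Of 113 genes in 6 lists of adipose and tissue Treg genes, 100 were tested. Among these, 60 rose, 8 fell and 32 were not called, against 9.79% and 11.4% of all tested genes. The lists were chosen with earlier results of these data known, so these shares describe the lists and are not a test. Rises were seen in 13 of 14 transcription factors but in 6 of 13 receptors and 7 of 17 lipid genes. The median difference of the 100 genes was 0.92, and that of all tested genes was -0.09. In the 3 VAT KO libraries taken singly against the spleen KO mean, the median of the 100 genes was 1.01, 0.85 and 1.13. The plot of called genes by list shows how the 6 lists and the others described here divided.

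**Figure D1:**
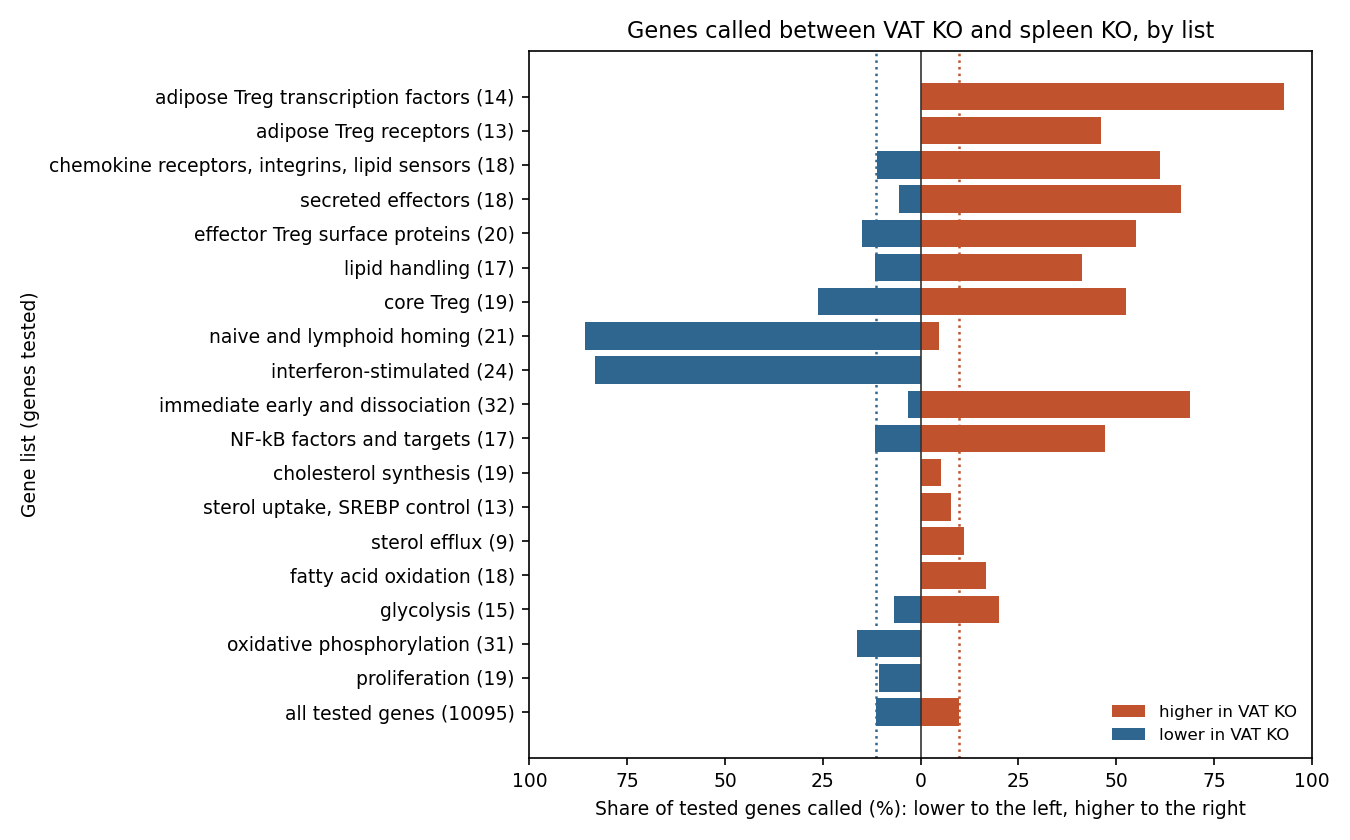
Share of tested genes called by limma (adjusted p under 0.05) between VAT KO and spleen KO in each gene list, with lower genes to the left and higher genes to the right on an axis in percent. Dotted lines mark the shares among all 10095 tested genes, 9.79% higher and 11.4% lower, and the longest bars are those of adipose Treg transcription factors (13 of 14 higher), naive and lymphoid homing genes (18 of 21 lower) and interferon-stimulated genes (20 of 24 lower).

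Of the 6 lists, the transcription factors of adipose Tregs had the highest share of rises. Of 14 tested, 13 rose, with a median of 2.30. Pparg, the nuclear receptor on which adipose Tregs depend, was at 25.4, 22.6 and 25.8 RPKM in VAT KO and 0.596 and 1.002 in spleen KO. All 3 VAT KO libraries were far above both spleen KO libraries, with a ratio of mean RPKM of 30.8 (log2 difference 3.84 ± 0.19, adjusted p = 5.08e-07). Gata3, a factor of type 2 lymphocytes and tissue Tregs, was at 188, 156 and 201 RPKM in VAT KO and 34.7 and 37.3 in spleen KO. Its groups were far apart and each varied little (log2 difference 2.296 ± 0.12, adjusted p = 1.15e-06). Rora, a nuclear receptor of tissue lymphocytes, was at 32.95, 26.97 and 32.01 RPKM in VAT KO and 4.71 and 5.93 in spleen KO (log2 difference 2.33 ± 0.16, adjusted p = 7.61e-06). Id2, an inhibitor of E proteins, was at 195, 176 and 193 RPKM in VAT KO and 32.8 and 32.3 in spleen KO (log2 difference 2.49 ± 0.10, adjusted p = 1.58e-07). None of these genes overlapped between the tissues, but neither did 5141 of all 10095 tested genes.

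Further factors of the list rose by amounts that ranged widely. They were Fosl2, an AP-1 member (4.2), Bhlhe40 (2.53) and Nfil3 (2.35), repressors tied to the circadian clock, Crem, a factor of cAMP signalling (2.296), Prdm1, which encodes Blimp-1 (1.86), Rbpj, the nuclear partner of Notch (1.72), and Irf4, a factor of effector Treg differentiation (1.16). Ikzf2 (log2 difference 0.77 ± 0.21, adjusted p = 0.02804) and Maf (log2 difference 0.72 ± 0.20, adjusted p = 0.0327) rose least. The call of Ikzf2, which encodes Helios, was lost without spleen KO replicate 2 (0.74, adjusted p = 0.115) or 3 (0.80, adjusted p = 0.0967), and in a fit of all 4 groups (adjusted p = 0.128). Maf was no longer called once spleen KO replicate 2 was left out (0.497, adjusted p = 0.211), nor without VAT KO replicate 1 (0.63, adjusted p = 0.108) or its replicate 3 (0.68, adjusted p = 0.06704). Batf, a partner of Irf4, was the factor that was not called: it was already high in the spleen, at 103 and 117 RPKM, and its VAT KO values of 103, 118 and 121 overlapped these (log2 difference 0.06 ± 0.11, adjusted p = 0.765).

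**Figure D2:**
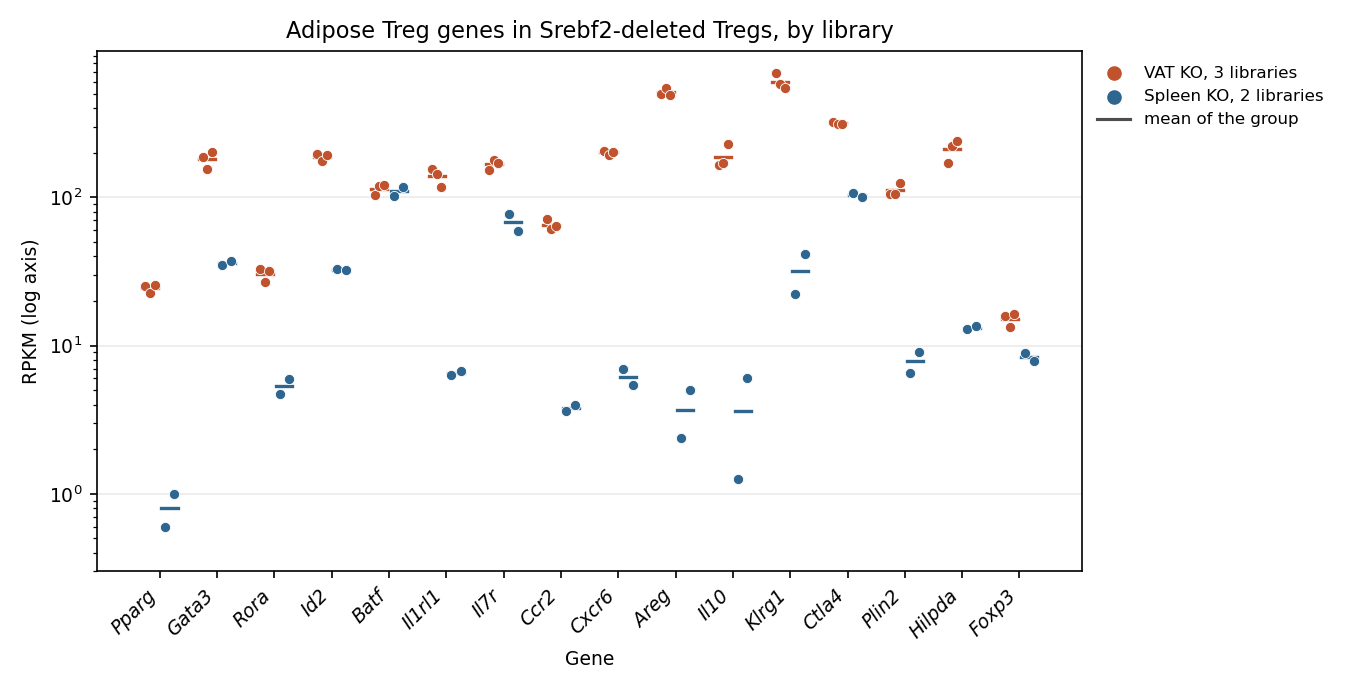
RPKM on a log axis of 16 adipose Treg genes in the 3 VAT KO libraries (orange) and the 2 spleen KO libraries (blue), with the mean of each group as a line. The groups are apart for every gene shown except Batf, as they are in 5141 of all 10095 tested genes. The distance is widest for Areg and smallest, among the genes that are apart, for Foxp3.

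Receptors for alarmins, cytokines and hormones divided into a part that rose and a part that did not. Of 13 tested, 6 rose, none fell and 7 were not called, with a median of 0.50. Il1rl1, whose product ST2 receives IL-33, was at 155, 144 and 117 RPKM in VAT KO and 6.32 and 6.72 in spleen KO. The ratio of mean RPKM was 21.3, and the groups were far apart (log2 difference 4.21 ± 0.14, adjusted p = 4.83e-08). Il18rap, a chain of the IL-18 receptor (2.64), Il10ra, the ligand-binding chain of the IL-10 receptor (2.42), Il9r (1.896) and Il7r (1.29) rose as well. Il2ra, which encodes the IL-2 receptor chain CD25, was at 152, 142 and 131 RPKM in VAT KO and 105 and 77.9 in spleen KO (log2 difference 0.64 ± 0.13, adjusted p = 0.00817), and its call was lost without spleen KO replicate 3 (0.43, adjusted p = 0.0656) and in a fit of all 4 groups (adjusted p = 0.0537). Tnfrsf1b, the TNF receptor of activated Tregs, was at 145, 139 and 104 RPKM in VAT KO and 154 and 123 in spleen KO, which overlapped, and both chains of the type I interferon receptor, Ifnar1 and Ifnar2, were not called.

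The stretch upstream of an Il1rl1 start is shown because ST2 is the receptor by which adipose Tregs are usually recognised. The gene has 2 RefSeq starts (GRCm38.p6), and the window below, the 250 bases before 1 of them on the plus strand (chr1:40429320-40429569), holds a match to the GATA motif AGATAA, in capitals. Matches were sought on both strands of all windows. Such a match lay in 2 of 11 genes of the receptor list with a window (18.2%, Il1rl1 and Il9r) and in 7.16% of all tested genes with a window.
Il1rl1: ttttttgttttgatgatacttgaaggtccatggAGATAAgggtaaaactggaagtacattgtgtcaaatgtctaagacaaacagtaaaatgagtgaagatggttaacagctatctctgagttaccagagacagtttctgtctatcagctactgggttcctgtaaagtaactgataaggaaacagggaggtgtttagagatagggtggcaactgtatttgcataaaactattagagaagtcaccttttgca

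Among chemokine receptors, integrins and lipid-sensing receptors, 11 of 18 rose, 2 fell and 5 were not called, with a median of 0.60. Cxcr6, the receptor for CXCL16, was at 206, 193 and 204 RPKM in VAT KO and 6.96 and 5.39 in spleen KO. Ccr2, the receptor for CCL2, was at 71.6, 61.4 and 63.6 RPKM in VAT KO and 3.61 and 4.001 in spleen KO. Both genes were far higher in every VAT KO library than in either spleen KO library, with ratios of mean RPKM of 32.6 and 17.2 (log2 difference 4.82 ± 0.13, adjusted p = 1.31e-08 and log2 difference 3.79 ± 0.14, adjusted p = 8.97e-08). Ccr1 (4.55) and Ccr3 (4.06), receptors for inflammatory chemokines, Ccr8 (1.74), a receptor of tissue Tregs, Itgav (1.79), an integrin chain that takes part in TGF-beta activation, and Cxcr4 (1.16) rose too. Itgae and Ccr10 fell. Itgae encodes CD103, the integrin chain that binds E-cadherin, and was at 5.31, 10.9 and 7.49 RPKM in VAT KO and 43.4 and 38.6 in spleen KO (log2 difference -2.29 ± 0.24, adjusted p = 0.0001301). Ccr10, a skin homing receptor, was at 0.026, 0.025 and 0.023 in VAT KO and 4.29 and 1.75 RPKM in spleen KO (log2 difference -1.897 ± 0.31, adjusted p = 0.00218).

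Secreted effectors held the largest rise of all tested genes, that of Areg. Of 18 tested, 12 rose, Lta fell and 5 were not called, with a median of 2.23. Areg encodes amphiregulin, a ligand of the EGF receptor that takes part in tissue repair, and was at 499, 542 and 492 RPKM in VAT KO and 2.39 and 5.01 in spleen KO. The 3 VAT KO libraries were close to each other, and the ratio of mean RPKM was 138 (log2 difference 6.82 ± 0.20, adjusted p = 2.27e-08). Il10, the gene of the suppressive cytokine IL-10, was at 165, 171 and 229 RPKM in VAT KO and 1.26 and 6.02 in spleen KO (log2 difference 5.55 ± 0.37, adjusted p = 5.75e-06). Cxcl2, a chemokine that attracts neutrophils, was at 145, 124 and 155 RPKM in VAT KO and 0.80 and 0.413 in spleen KO (log2 difference 6.47 ± 0.16, adjusted p = 1.31e-08). These genes were high in every VAT KO library and at 6.02 RPKM or less in both spleen KO libraries.

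The chemokine gene Cxcl3 and the cytokine gene Csf2 varied among the VAT KO libraries. Cxcl3, which also attracts neutrophils, was at 95.8, 48.02 and 20.1 RPKM in VAT KO and 0.388 and 0.512 in spleen KO (log2 difference 5.001 ± 0.48, adjusted p = 8.29e-05). Csf2, which encodes GM-CSF, was at 78.8, 25.5 and 16.4 RPKM in VAT KO and 0.045 and 0.118 in spleen KO (log2 difference 4.94 ± 0.50, adjusted p = 0.000111). In both genes VAT KO replicate 1 was the highest and replicate 3 the lowest, yet the lowest stood far above both spleen KO libraries. Mmp9, a matrix gelatinase (5.01), Fgl2, a fibrinogen-like suppressive factor (4.15), Il5, a cytokine for eosinophils, listed at 0 in spleen KO replicate 3 (3.26), Ccl5 (2.59) and Csf1, the macrophage growth factor (1.86), rose more evenly. Lta, which encodes lymphotoxin alpha, went the other way and was at 6.28, 10.6 and 8.58 RPKM in VAT KO and 92.3 and 53.6 in spleen KO (log2 difference -2.94 ± 0.25, adjusted p = 3.29e-05). Gzmb, which encodes granzyme B, spread from 12.6 to 88.3 in VAT KO against 3.32 and 19.7 in spleen KO and was not called (log2 difference 1.75 ± 0.75, adjusted p = 0.129). It passed without VAT KO replicate 3 (2.36, adjusted p = 0.0387) or without spleen KO replicate 3 (2.88, adjusted p = 0.0393).

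The windows of 250 bases before the start of the 3 genes below (RefSeq, GRCm38.p6, plus strand) are shown because these genes moved together and stand near each other on chromosome 5. Areg (chr5:91139349-91139598) holds the cAMP response element (CRE) TGACGTCA in capitals, which ends 53 bases before the start. Cxcl2 (chr5:90903649-90903898) and Cxcl3 (chr5:90785851-90786100) hold a motif of NF-kB in capitals (GGGA and TTTCC with any 1 base between them), which ends 87 and 63 bases before their starts. The NF-kB motif lay in 3 of 13 secreted effector genes with a window (23.1%, Csf1 being the other). It lay in 0.477% of all tested genes with a window, and the CRE in 3.27% of the latter. A match describes the sequence and does not show that a factor binds there.
Areg: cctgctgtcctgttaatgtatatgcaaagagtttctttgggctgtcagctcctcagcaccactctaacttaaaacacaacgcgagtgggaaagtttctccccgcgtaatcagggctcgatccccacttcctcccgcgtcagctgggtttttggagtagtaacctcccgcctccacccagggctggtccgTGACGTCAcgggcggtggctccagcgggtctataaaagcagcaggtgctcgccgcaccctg
Cxcl2: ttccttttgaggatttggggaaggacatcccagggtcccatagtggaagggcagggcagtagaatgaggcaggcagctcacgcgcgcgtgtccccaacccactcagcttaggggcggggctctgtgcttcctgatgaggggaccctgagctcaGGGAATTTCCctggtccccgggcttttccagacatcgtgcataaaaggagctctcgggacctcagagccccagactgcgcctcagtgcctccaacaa
Cxcl3: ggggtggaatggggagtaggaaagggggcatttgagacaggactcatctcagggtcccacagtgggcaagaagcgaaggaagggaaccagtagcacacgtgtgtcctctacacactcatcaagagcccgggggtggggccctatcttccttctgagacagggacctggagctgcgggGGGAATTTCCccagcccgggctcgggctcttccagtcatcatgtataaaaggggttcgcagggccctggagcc

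Surface proteins of effector Tregs mostly rose. Of 20 tested, 11 rose, 3 fell and 6 were not called, with a median of 0.83. Klrg1, an inhibitory receptor of terminally differentiated lymphocytes, was at 685, 579 and 543 RPKM in VAT KO and 22.3 and 41.4 in spleen KO (log2 difference 4.26 ± 0.21, adjusted p = 5.95e-07). Ctla4, the inhibitory receptor through which Tregs strip CD80 and CD86 from antigen-presenting cells, was at 321, 313 and 311 RPKM in VAT KO and 107 and 100.4 in spleen KO (log2 difference 1.59 ± 0.09, adjusted p = 1.15e-06). Both genes were apart between the tissues, with ratios of mean RPKM of 18.9 and 3.03. Lilrb4a (3.55) and Cd200r1 (2.88), inhibitory receptors, Cd69, a tissue residency marker (2.06), Pdcd1, which encodes PD-1 (1.5), Tigit (1.46) and Cd44 (1.43) also rose. Nt5e, which encodes the adenosine-producing ectoenzyme CD73, was at 23.2, 24.96 and 29.9 RPKM in VAT KO and 73.2 and 73.3 in spleen KO (log2 difference -1.47 ± 0.13, adjusted p = 5.90e-05). It fell, as did Cd86 (-1.98) and Cd83, whose call was lost without spleen KO replicate 3 (-1.11, adjusted p = 0.0752).

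Lipid genes moved in both directions. Of 17 tested genes of lipid uptake, storage and handling, 7 rose, 2 fell and 8 were not called, with a median of 0.19. Plin2, which coats lipid droplets, was at 105, 105 and 125 RPKM in VAT KO and 6.56 and 9.11 in spleen KO (log2 difference 3.68 ± 0.15, adjusted p = 1.98e-07). Hilpda, an inhibitor of droplet lipolysis, was at 171, 222 and 239 RPKM in VAT KO and 12.97 and 13.5 in spleen KO (log2 difference 3.88 ± 0.15, adjusted p = 1.08e-07). The lowest VAT KO library was far above the highest spleen KO library in both genes, with ratios of mean RPKM of 14.2 and 15.9. Dgat1, which makes triglyceride (2.99), Pcyt1a, an enzyme of phosphatidylcholine synthesis (2.95), Cpt1a, which admits fatty acids to mitochondria (1.32), Fabp5, a fatty acid binding protein (1.00), and Acsl4, which activates long-chain fatty acids (0.702), rose as well. Lipa, the lysosomal acid lipase (-1.06), and Scd2, a fatty acid desaturase (-1.07), fell. Single libraries decided 3 of these calls: that of Fabp5 was lost without spleen KO replicate 2 (0.84, adjusted p = 0.0692), that of Scd2 without spleen KO replicate 3 (-1.02, adjusted p = 0.0722), and that of Acsl4 without VAT KO replicate 2 (0.65, adjusted p = 0.0876), its replicate 3 (0.64, adjusted p = 0.0702) or spleen KO replicate 3 (0.503, adjusted p = 0.207). In a fit of all 4 groups Acsl4 and Scd2 were not called either (adjusted p = 0.0619 and 0.123). Dgat2 and Plin3, which like Dgat1 and Plin2 serve triglyceride synthesis and droplet coating, were not called. The droplet lipase gene Pnpla2 was at 14.5, 10.9 and 15.03 RPKM in VAT KO and 16.7 and 12.1 in spleen KO, with overlapping groups. Cd36, Fabp4 and Lpl were not analysed here.

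Genes of naive T cells and lymphoid homing were low in fat. Of 21 tested, 18 fell, 1 rose and 2 were not called, with a median of -1.41. Ccr7, the chemokine receptor for entry into lymph nodes, was at 28.4, 87.98 and 76.7 RPKM in VAT KO and 275 and 205 in spleen KO (log2 difference -2.02 ± 0.38, adjusted p = 0.00522, and adjusted p = 0.0719 with a robust spread). Tcf7, the transcription factor TCF1 of naive and memory-like T cells, was at 46.6, 82.5 and 82.3 RPKM in VAT KO and 208 and 224 in spleen KO (log2 difference -1.65 ± 0.22, adjusted p = 0.000584). In both genes VAT KO replicate 1 was the lowest library, and the spleen KO libraries were both above every VAT KO library. The median of the list against the spleen KO mean was -1.71 in VAT KO replicate 1, -1.03 in replicate 2 and -1.195 in replicate 3. Igfbp4, an insulin-like growth factor binding protein, was the largest fall of all tested genes and was at 0.57, 1.11 and 2.66 RPKM in VAT KO and 35.9 and 33.7 in spleen KO (log2 difference -3.96 ± 0.31, adjusted p = 2.05e-05).

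Further members that fell were Cxcr5, the receptor for entry into B cell follicles (-2.14), the chromatin organiser Satb1 (-2.11), the transcription factors Lef1 (-1.05), Bach2 (-1.41) and Foxp1 (-1.01), and Il6ra (-1.46). Klf2, the factor that maintains egress receptors, fell less (log2 difference -0.54 ± 0.13, adjusted p = 0.0137), as did S1pr1, the receptor for egress to blood (log2 difference -0.59 ± 0.16, adjusted p = 0.0232). The call of Klf2 was lost without spleen KO replicate 3 (-0.35, adjusted p = 0.117) and that of S1pr1 without spleen KO replicate 2 (-0.47, adjusted p = 0.151). Ramp1, a partner of the receptor for the neuropeptide CGRP, was the member that rose (1.698). Outside the list, Dtx1, a ubiquitin ligase of the Notch pathway, was at 1.79, 3.57 and 4.98 RPKM in VAT KO and 50.5 and 58.1 in spleen KO (log2 difference -3.701 ± 0.28, adjusted p = 1.45e-05). Id3, an inhibitor of E proteins like Id2, was at 1.77, 7.29 and 12.3 RPKM in VAT KO and 65.8 and 81.7 in spleen KO (log2 difference -3.46 ± 0.50, adjusted p = 0.00114). Id2 and Id3 thus moved in opposite directions between the tissues.

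**Figure D3:**
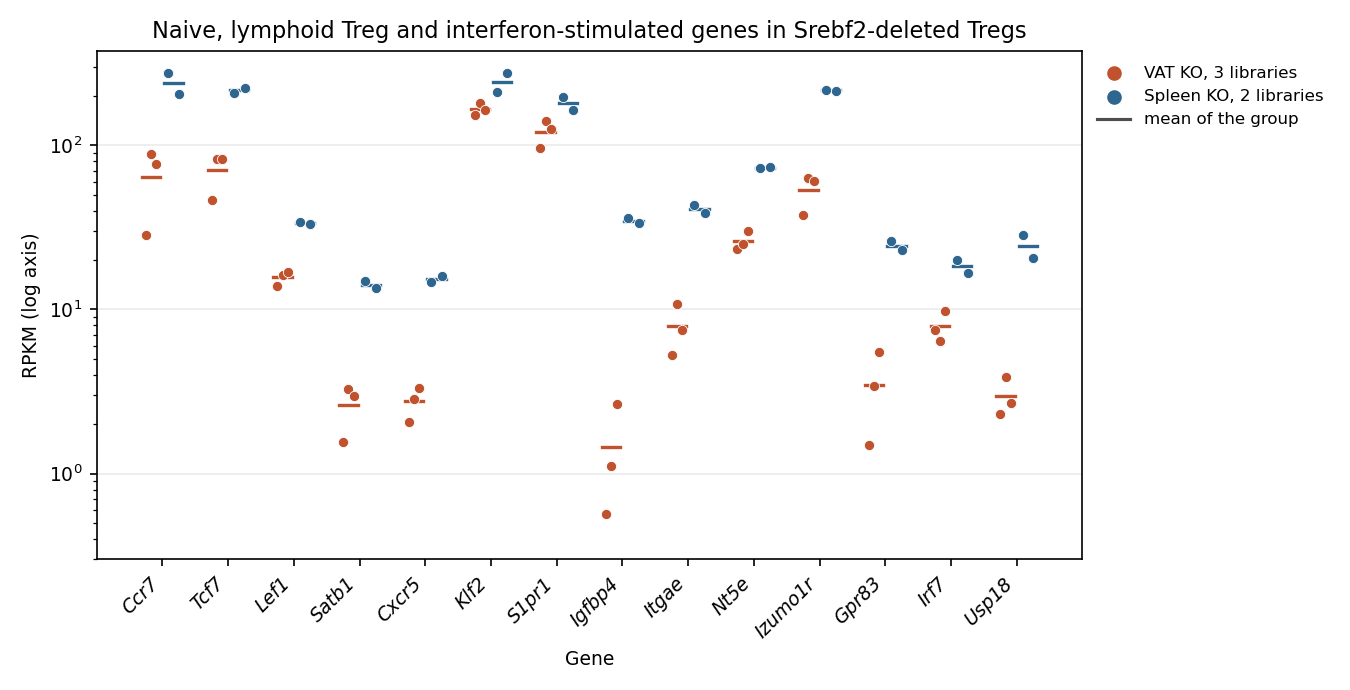
RPKM on a log axis of 14 genes that fell in VAT KO, with the 3 VAT KO libraries in orange, the 2 spleen KO libraries in blue and the group means as lines. Every spleen KO library lies above every VAT KO library, and in Ccr7 and Tcf7 the lowest orange point is VAT KO replicate 1. Groups without overlap, in either direction, were found in 5141 of all 10095 tested genes.

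Core Treg genes moved in both directions. Of 19 tested, 10 rose, 5 fell and 4 were not called, with a median of 0.49. Foxp3 was at 15.9, 13.3 and 16.4 RPKM in VAT KO and 8.87 and 7.82 in spleen KO (log2 difference 0.79 ± 0.17, adjusted p = 0.00843). All VAT KO libraries were above both spleen KO libraries, but the call was lost without spleen KO replicate 3 (0.71, adjusted p = 0.0642). Socs2, a suppressor of cytokine signalling (1.86), Capg, an actin capping protein (0.79), and the TNF receptor family members Tnfrsf4 (0.85) and Tnfrsf18 (0.83) rose with it. Izumo1r, the folate receptor 4 of Tregs, was at 37.4, 63.3 and 60.4 RPKM in VAT KO and 217 and 215 in spleen KO (log2 difference -2.03 ± 0.19, adjusted p = 8.07e-05). Gpr83, a receptor of resting Tregs, was at 1.498, 3.41 and 5.51 RPKM in VAT KO and 26.1 and 22.9 in spleen KO (log2 difference -2.62 ± 0.34, adjusted p = 0.000529). Both genes fell in every VAT KO library. Of the genes used to sort the cells, Cd4 was at 122, 141 and 149 RPKM in VAT KO and 135 and 133 in spleen KO, with overlapping groups, and Cd3d, a chain of the T cell receptor complex, fell (-0.68).

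Immediate early genes and other genes known to respond to tissue dissociation were high in VAT KO. Of 32 tested, 22 rose, 1 fell and 9 were not called, with a median of 2.59, the highest of the lists described. Fos was at 400.5, 428 and 412 RPKM in VAT KO and 5.21 and 1.93 in spleen KO (log2 difference 6.602 ± 0.25, adjusted p = 1.08e-07). Atf3, a stress-induced factor, was at 96.4, 96.8 and 132 RPKM in VAT KO and 0.112 and 0.295 in spleen KO (log2 difference 6.495 ± 0.18, adjusted p = 1.65e-08). Nr4a1, a nuclear receptor induced by T cell receptor signals, was at 643, 591 and 586 RPKM in VAT KO and 23.4 and 31.6 in spleen KO (log2 difference 4.43 ± 0.12, adjusted p = 1.72e-08). In each of these genes the lowest VAT KO library was far above the highest spleen KO library. Hspa1b, a heat shock protein, was at 303, 424 and 516 RPKM in VAT KO and 5.57 and 82.3 in spleen KO (log2 difference 4.12 ± 0.78, adjusted p = 0.00525, and adjusted p = 0.138 with a robust spread). Spleen KO replicate 3 was far above replicate 2 in this gene, and also in its neighbour Hspa1a (2.29 and 26.01 RPKM in spleen KO replicates 2 and 3) and the chaperone Hsph1 (12.4 and 67.3 RPKM). These genes moved with the adipose genes above, and their part in those results was not tested. The tissue and the handling that each tissue needs to free its cells cannot be told apart in this design.

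NF-kB genes rose in part. Of 17 factors and targets, 8 rose, 2 fell and 7 were not called, with a median of 0.43. Tnfaip3, a brake on NF-kB signalling, was at 329.5, 306 and 254 RPKM in VAT KO and 18.6 and 17.1 in spleen KO (log2 difference 3.97 ± 0.13, adjusted p = 2.89e-08). Nfkbid (3.23), Nfkbiz (2.94) and Nfkbia (1.897), whose products restrain or tune NF-kB, rose too, and the adhesion receptor Icam1 rose less (1.18). The subunits Rela and Relb were not called, at 44.8, 43.7 and 44.3 RPKM in VAT KO and 49.7 and 53.1 in spleen KO for Rela and 14.5, 12.9 and 12.8 RPKM in VAT KO and 17.4 and 15.4 in spleen KO for Relb. The 4 largest rises of the list were in genes that restrain or tune NF-kB, but its 2 falls were in inhibitors as well. These were Tnip1 (log2 difference -0.69 ± 0.14, adjusted p = 0.00647) and Nfkbie (log2 difference -0.55 ± 0.17, adjusted p = 0.0413). The inhibitor Nfkbib was not called.

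Interferon-stimulated genes were lower in fat. Of 24 tested, 20 fell, none rose and 4 were not called, with a median of -1.19. Usp18, which restrains signalling from the type I interferon receptor, was at 2.296, 3.88 and 2.698 RPKM in VAT KO and 28.3 and 20.5 in spleen KO (log2 difference -2.69 ± 0.23, adjusted p = 3.37e-05). Ifit1, an antiviral protein that binds foreign RNA, was at 5.02, 2.69 and 1.87 RPKM in VAT KO and 18.01 and 17.7 in spleen KO (log2 difference -2.24 ± 0.29, adjusted p = 0.000511). In neither gene did a VAT KO library reach a spleen KO library. Rtp4 (-2.03), the GTPase Iigp1 (-2.01), and the factors Irf9 (-1.39) and Irf7 (-1.13) fell as well.

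The upstream window of Ifit1 (chr19:34640639-34640888, GRCm38.p6, RefSeq, plus strand, 250 bases before the start) is shown as the example of this group. The interferon-stimulated response element (ISRE) was sought on both strands as TTTC, any 2 bases and TTTC again, and its 2 matches are in capitals. It lay in 11 of 18 genes of the interferon-stimulated list with a window (61.1%) and in 3.33% of all tested genes with a window. None of the 17 naive and lymphoid homing genes with a window held it. The list was chosen for its known response to interferon, so the share describes the list and not the tissues.
Ifit1: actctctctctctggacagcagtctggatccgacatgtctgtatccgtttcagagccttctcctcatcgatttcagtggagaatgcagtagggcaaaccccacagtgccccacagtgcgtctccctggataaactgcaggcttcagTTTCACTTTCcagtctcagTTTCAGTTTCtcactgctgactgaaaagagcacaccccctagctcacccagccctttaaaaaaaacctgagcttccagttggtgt

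Cholesterol genes differed little between the tissues in KO cells. Of 19 tested enzymes of cholesterol synthesis, 1 rose, none fell and 18 were not called, a share below that of all tested genes, with a median of -0.08 against -0.09. The gene that rose was Sc5d, a late enzyme of the pathway, at 18.97, 15.4 and 20.002 RPKM in VAT KO and 9.87 and 11.9 in spleen KO (log2 difference 0.68 ± 0.17, adjusted p = 0.0178). It was no longer called once VAT KO replicate 1 (0.65, adjusted p = 0.0608) or spleen KO replicate 2 (0.56, adjusted p = 0.121) was left out. Fdps, which makes farnesyl diphosphate, was at 5.42, 3.97 and 5.46 RPKM in VAT KO and 5.91 and 7.504 in spleen KO, and Mvd, an enzyme of the mevalonate pathway, at 12.01, 12.03 and 8.72 RPKM in VAT KO and 12.6 and 13.9 in spleen KO. Neither was called. Sqle, the enzyme that makes squalene epoxide, was under 1 RPKM in all 5 libraries and could not be tested. In WT cells 3 of 21 tested enzymes rose and none fell, by the fit of all groups that gave the WT calls.

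Genes of sterol uptake and SREBP control gave 1 rise among 13 tested, with a median of -0.01. Insig1, which retains SREBP proteins in the endoplasmic reticulum, was at 12.1, 6.63 and 6.49 RPKM in VAT KO and 3.39 and 4.53 in spleen KO (log2 difference 0.88 ± 0.27, adjusted p = 0.04297). This call ended in 8 of 14 alternatives, among them those that left out VAT KO replicate 1 (0.62, adjusted p = 0.113), spleen KO replicate 2 (0.72, adjusted p = 0.203) or spleen KO replicate 3 (1.05, adjusted p = 0.0797). Srebf1, the related factor of fatty acid synthesis, was at 14.1, 13.8 and 14.97 RPKM in VAT KO and 13.5 and 10.4 in spleen KO and was not called (adjusted p = 0.321). Among 9 genes of sterol efflux, Nceh1, a cholesterol ester hydrolase, rose (log2 difference 0.87 ± 0.19, adjusted p = 0.00985), a call lost without spleen KO replicate 2 (0.76, adjusted p = 0.0689). The efflux pumps Abca1 and Abcg1 were at 0.899, 1.07 and 0.451 RPKM in VAT KO and 0.637 and 1.83 in spleen KO and at 3.099, 4.55 and 4.14 RPKM in VAT KO and 6.17 and 6.34 in spleen KO, and neither was called.

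**Figure D4:**
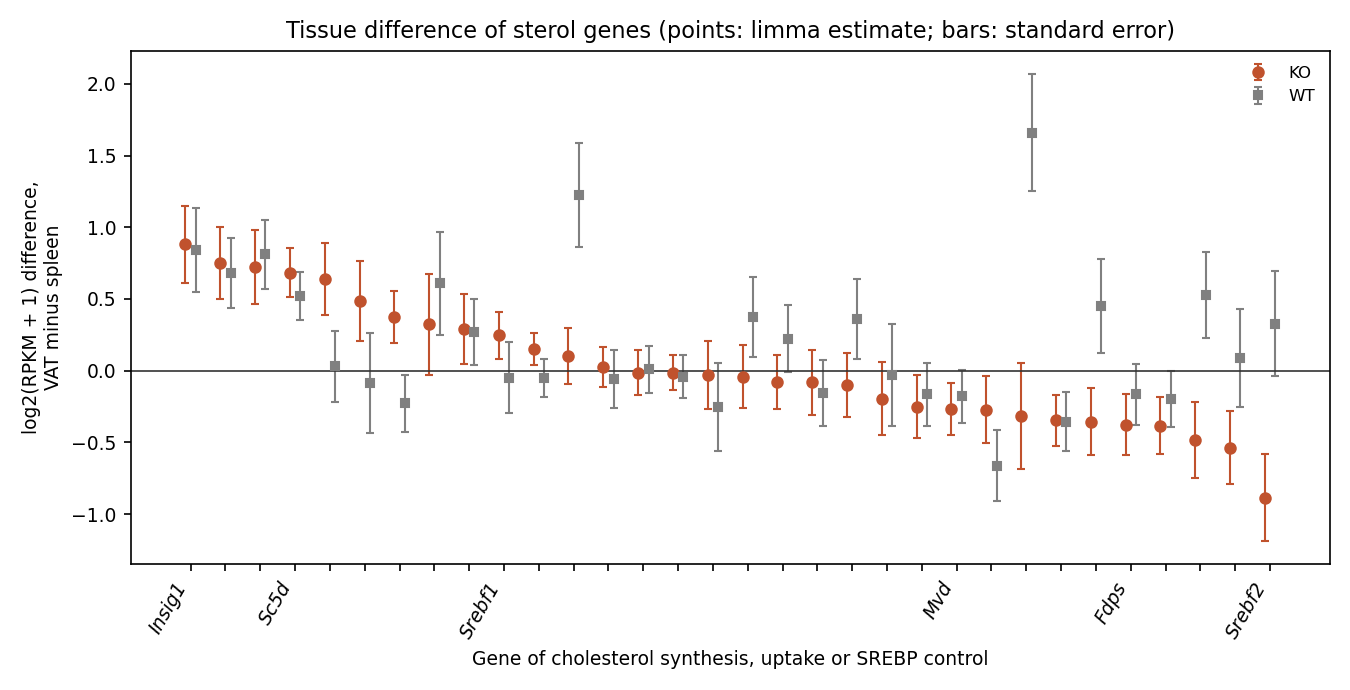
Difference between VAT and spleen on the log2(RPKM + 1) scale for 32 tested genes of cholesterol synthesis, uptake and SREBP control, in KO (circles) and WT (squares), with limma's standard error as bars. In KO all points lie within 1 log2 unit of 0, and Insig1 and Sc5d are the 2 called (only genes described in the text are named on the axis).

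Energy metabolism and growth genes showed small differences. Of 18 tested genes of fatty acid oxidation, 3 rose and none fell, with a median of 0.10. Beside Cpt1a these included Etfb, a carrier of electrons from acyl-CoA dehydrogenases (0.78). Of 15 glycolysis genes, 3 rose and 1 fell, with Slc2a3, a glucose transporter, in front (0.93). Of 31 genes of oxidative phosphorylation, 5 fell and none rose, with a median of -0.24 and the largest fall in Ndufa4 (-0.996). Of 19 proliferation genes, 2 fell and none rose. The shares called were far below those of the adipose and naive lists. That does not set them apart from tested genes at large. Of all tested genes 9.79% rose and 11.4% fell, so that 21.2% were called in either direction. Whether any of these lists differed from that share was not tested.

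Of the 7 tested markers of conventional helper T cells and group 2 innate lymphoid cells, 5 rose and none fell. The shares among all tested genes were 9.79% and 11.4%. Il5, counted above as a secreted effector, is also 1 of these 5 markers. In the 2 tested markers of cytotoxic lymphocytes, Nkg7 rose and Cd8b1 fell. Nkg7, a granule protein of cytotoxic cells, was at 119, 92.7 and 117 RPKM in VAT KO and 20.6 and 15.8 in spleen KO (log2 difference 2.53 ± 0.15, adjusted p = 2.77e-06). Ifng, which encodes interferon gamma, was at 53.4, 31.5 and 33.8 RPKM in VAT KO and 1.197 and 6.79 in spleen KO (log2 difference 3.26 ± 0.44, adjusted p = 0.000675). Tbx21, the T-bet factor of type 1 cells, was at 85.3, 42.98 and 48.9 RPKM in VAT KO and 13.7 and 11.7 in spleen KO (log2 difference 2.07 ± 0.25, adjusted p = 0.000338). The VAT KO libraries were above the spleen KO libraries in all 3 genes, and VAT KO replicate 1 was the highest in each. Cd40lg, a helper ligand low in resting Tregs, rose as well (1.303). Cd8a was under 1 RPKM in all 5 KO libraries. The 7 markers of helper and innate lymphoid cells summed to 193 to 275 RPKM in VAT KO and 59.8 and 74.1 in spleen KO, and 166 to 252 in VAT WT and 53.7 and 56.4 in spleen WT. Their part in the rises of Areg, Il1rl1, Gata3 and Il5, which such cells also express, was not tested.

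The same tissue contrast with Srebf2 intact shares no library with the KO contrast. In WT, 1116 of 10429 tested genes (10.7%) rose and 1607 (15.4%) fell. The count of 2723 called genes was 1718 without spleen WT replicate 2. At least 2-fold, 6.75% rose and 6.46% fell in WT. The KO calls came from a fit of the KO libraries alone. The WT calls came from a fit of all groups, whose spread includes the KO libraries. Counts of calls in KO and WT are therefore not like for like. By the fit of all groups, 798 genes rose and 724 fell in KO. Among genes tested in both genotypes, 592 rose at least 2-fold in KO, 691 in WT and 469 in both, which is 79.2% of the KO genes and 67.9% of the WT genes. For falls the counts were 344, 638 and 270, which is 78.5% of the KO genes and 42.3% of the WT genes. Across 10095 genes, which are not independent replicates, Pearson's r between the KO and WT differences was 0.858. The 592 genes chosen by their rise in KO had a median of 1.59 in KO and 1.72 in WT.

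**Figure D5:**
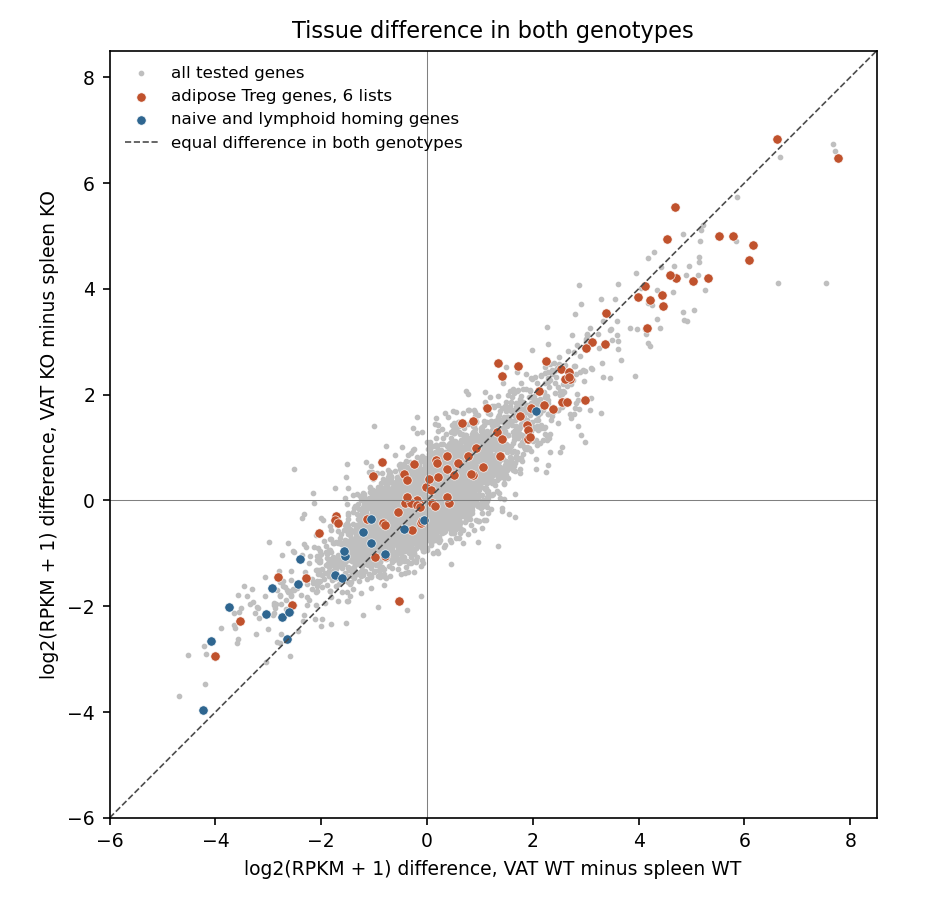
Difference between VAT and spleen on the log2(RPKM + 1) scale in WT (x axis) and KO (y axis) for 10095 genes, with the adipose Treg genes of 6 lists in orange and naive and lymphoid homing genes in blue. The dashed line marks equal differences, and the difference was larger in size in WT for 18 of the 21 naive genes, 69 of the 100 adipose genes and 6267 of all 10095.

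The median difference of the 100 adipose genes was 0.92 in KO and 0.90 in WT, but single members stood close together or apart. Pparg differed by 3.84 in KO and 3.99 in WT, Areg by 6.82 and 6.62, Klrg1 by 4.26 and 4.6, Gata3 by 2.296 and 2.6, and Plin2 by 3.68 and 4.46. Il1rl1 differed by 4.21 in KO and 5.32 in WT, Cxcr6 by 4.82 and 6.16, Cxcl2 by 6.47 and 7.76, and Ccr1 by 4.55 and 6.08. Larger in KO than in WT were Nfil3 (2.35 and 1.43), Ccl5 (2.59 and 1.33), Bhlhe40 (2.53 and 1.72) and Ccr8 (1.74 and 1.12). The difference was larger in size in WT for 69 of the 100 genes. Among members with opposite signs in KO and WT were the chemokine receptor gene Cxcr3 (0.72 and -0.85) and the integrin gene Itgb1 (0.39 and -0.38). Another was Gpr15, a homing receptor of the gut and skin, with 0.46 in KO and -1.02 in WT. Its KO call was lost whichever KO library was left out (0.42 to 0.50, adjusted p from 0.0699 to 0.183), with the replicate block (adjusted p = 0.0545) and in a fit of all 4 groups (adjusted p = 0.341). In the naive list the median was -1.41 in KO and -1.73 in WT. Tcf7 differed by -1.65 in KO and -2.92 in WT and Ccr7 by -2.02 and -3.73.

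A test of whether the tissue difference itself differed between genotypes called no gene. Limma's interaction term gave 0 of 10429 genes at an adjusted p under 0.05, and 738 (7.08%) at an unadjusted p under 0.05. Of the adipose genes 29 of 101 were at an unadjusted p under 0.05, 9 of them among the 18 chemokine receptors, integrins and lipid-sensing receptors, and of the naive genes 8 of 21. The difference was higher in KO than in WT for 47 of the 101 adipose genes and 17 of the 21 naive genes, against 5742 of all 10429. The 6 genes with the smallest p were Timp2 (1.54 ± 0.26), a metalloproteinase inhibitor, Serpina3g (2.19 ± 0.38), Zfp189 (2.402 ± 0.43), Rilpl2 (1.24 ± 0.24), Ms4a4b (1.34 ± 0.26) and Ccr1 (-1.53 ± 0.30), as KO minus WT, each with an adjusted p of 0.308. Ccr1 was at 39.9, 35.7 and 48.5 RPKM in VAT KO and 0.48 and 1.18 in spleen KO, and at 75.7, 67.9 and 59.8 in VAT WT and 0.026 and 0 in spleen WT. A pseudocount of 0.1 called 2 genes, Ccr1 (-3.66, adjusted p = 0.0152) and Cxcl2 (-3.25, adjusted p = 0.0121). Spleen WT Ccr1 and Cxcl2 were at or below 0.026 RPKM, so these values rest on the spleen libraries near 0. The count also moved with single libraries. It was 2 without spleen KO replicate 2, the heat shock genes Hspa1a (-4.04, adjusted p = 0.0232) and Hspa1b (-5.25, adjusted p = 0.0050), and 514 without spleen WT replicate 3, which leaves 1 spleen WT library and would call 15 of 101 adipose genes and none of the 21 naive genes. The absence of calls does not show that the tissue difference was equal in both genotypes.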

How the data were processed

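The members, gene lists and tests were chosen with earlier results of these data known. The deposited table gives RPKM, per the file headers, for 10992 genes in each library. RNA was reverse transcribed with the SMART-seq v4 kit and made into libraries with Nextera XT, per the labels' protocols, and STAR and mm10 were used, per the submitters' processing notes. Which counter, gene models and library size were used is not given in the sources used here. RPKM values are not counts, and depth is unknown. Without strand, overlapping genes cannot be told apart. The label of spleen KO replicate 1 matched no column, and 1 column, headed as spleen WT replicate 1, matched no label. Neither was analysed here, and whether they are the same library is unknown.

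The deposited RPKM were turned into log2(RPKM + 1), with a pseudocount of 1, over genes with at least 1 RPKM in at least 2 libraries. Limma 3.58.1 in R 4.3.3 (trend on, robust off, two-sided, Benjamini-Hochberg) was fitted to the 5 KO libraries for the main comparison, with 3 residual and 6.69 prior degrees of freedom. The WT difference and the interaction came from 1 fit of the 4 groups over 10 libraries, with 6 residual and 6.44 prior degrees of freedom. The fit of the 5 KO libraries was tested on simulated data, and the fit of the 4 groups was not. Named genes were Srebf2, Foxp3, the 12 largest called rises and falls among genes without overlap between the tissues and with 5 RPKM or more on average in one tissue, and members of 27 lists (488 entries). Unnamed gene models and receptor segments were passed over, and some list members are not reported here. Entrez identifiers of 10987 genes matched RefSeq (GRCm38.p6), and 15 symbols stored as dates were corrected. Motifs were sought in the 250 bases before RefSeq starts, which 8176 tested genes had. Replicate numbers were not used to pair the samples in the main comparison. With 2 shared numbers, the correlation of the replicate 2 minus 3 deviations between the tissues was 0.03. This rests on 1 difference per tissue and cannot show whether the numbers pair the samples.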

Additional observations from a re-analysis of the deposited data

How the results depend on the processing

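The deposited RPKM carry no read depth, so the precision of single low values is unknown, and with 2 spleen libraries the spread within spleen rests on 1 difference. Leaving out 1 KO library gave 1128 to 2123 called genes, 53 to 58 adipose genes higher and 16 to 18 naive genes lower. The lowest total counts came without spleen KO replicate 2 (1262) and 3 (1128). The WT count ranged from 1718 to 3892, with 1718 without spleen WT replicate 2, an alternative added after the data were seen. The interaction count ranged from 0 to 514 when 1 library was left out, with 2 without spleen KO replicate 2 and 514 without spleen WT replicate 3. It was 2 at a pseudocount of 0.1 and 0 under the other settings that keep all libraries. With the replicate number as a block 2092 genes were called (981 higher, 1111 lower), with 60 adipose and 18 naive genes as before and 0 in the interaction. Under the block the calls of Insig1 and Gpr15 were lost. A fit of all 4 groups called 1522 genes and 51 adipose genes. Batf turned to -0.0026 with quantile normalization and ranged from -0.034 (without spleen KO replicate 2) to 0.148 (without spleen KO replicate 3) with 1 library left out; the cause was not tested. Of 120 named genes followed through the 14 alternatives, 97 kept their direction and side of the threshold in every alternative that tested them. Some alternatives did not test all of them, and a filter of a mean of at least 5 RPKM tested 113.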

Other observations

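Some markers of other cells also differed between the tissues. Ctss, which encodes the protease cathepsin S of antigen-presenting cells, was at 19.8, 44.9 and 41.3 RPKM in VAT KO and 179.7 and 185 in spleen KO (log2 difference -2.42 ± 0.28, adjusted p = 0.000271). Cst3, which encodes the protease inhibitor cystatin C, was at 56.8, 55.1 and 63.9 RPKM in VAT KO and 39.8 and 35.8 in spleen KO (log2 difference 0.62 ± 0.12, adjusted p = 0.00579). Xcr1, a chemokine receptor of cross-presenting dendritic cells, was at 2.45, 1.597 and 3.99 RPKM in VAT KO and 0.0080 and 0.223 in spleen KO (log2 difference 1.68 ± 0.31, adjusted p = 0.00427). Of the 4 tested myeloid markers, Ctss fell, Cst3 and Xcr1 rose and Fcer1g was not called. Of the 11 tested B cell markers, 2 fell, 1 rose and 8 were not called. Among all tested genes 9.79% rose and 11.4% fell, and whether these markers differed from those shares was not tested. Cd22, an inhibitory receptor of B cells, was at 0.216, 0.084 and 0.509 RPKM in VAT KO and 5.27 and 3.45 in spleen KO (log2 difference -2.07 ± 0.27, adjusted p = 0.000565), while Ms4a1, which encodes CD20, was at 0.857, 1.04 and 0.644 RPKM in VAT KO and 0.624 and 1.599 in spleen KO and was not called. Cd79b, a chain of the B cell receptor, fell as well (-1.16), and H2-Eb1, an MHC class II chain, rose (log2 difference 1.25 ± 0.31, adjusted p = 0.0182). H2-Eb1 was no longer called once VAT KO replicate 1 (1.08, adjusted p = 0.0676) was left out, nor without spleen KO replicate 2 (1.01, adjusted p = 0.118), and Cd79b was not called in a fit of all 4 groups (adjusted p = 0.0520). Pecam1, an adhesion molecule of endothelium and of resting lymphocytes, was at 8.796, 11.8 and 10.7 RPKM in VAT KO and 34.9 and 19.3 in spleen KO (log2 difference -1.25 ± 0.24, adjusted p = 0.00501). The myeloid genes Csf1r and Adgre1 were under 1 RPKM in all 5 libraries.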
